A study of Rattus norvegicus with 15 samples.

Results

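Map2 and Dlg4 were followed through the 3 stages of enamel formation that were profiled in the rat enamel organ. Both are genes best known from neurons, and both were dim on the arrays. The members are the probes whose accession is a RefSeq transcript of rat Map2 or Dlg4. Each gene had 1 probe with 10 spots per array, so that 2 of the 38321 probes, and 2 of the 38 RefSeq genes that could be named, make up the set. The probe of Map2 (gene ID 25595) is A_44_P111897 and that of Dlg4 (gene ID 29495) is A_44_P238314; the exon each probe reads is not analysed here. The genes were chosen by measured values, namely their higher signal in the cervical loop than in the later stages. Their cervical loop differences are therefore given as descriptions without a test. The difference between the secretory and maturation stages was tested for both genes, but only that of Dlg4 is read. Map2 was at background in both stages, so its p-values compare background values (limma, adjusted p = 0.214).

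The tissue was the enamel organ, the epithelium that forms enamel, from mandibular incisors of 4-week-old Wistar Hannover rats, which carried no transgene or treatment per the labels. Groups were the cervical loop, the growing end that holds the progenitor cells, the secretory stage, in which ameloblasts deposit the enamel matrix, and the maturation stage, in which matrix is removed and mineral added. Each had 5 samples, the design text names 5 rats, and the 15 total RNA samples were hybridized singly to one-colour arrays made for long non-coding RNAs. The tissue label gave the stage of each sample. Titles exchange the secretory and maturation stages for 8 arrays, and no enamel gene was named on the array that could check which is which (0 of 7 markers). Each secretory and maturation array correlated more with all arrays of its own tissue label than with any array of another stage. The lowest r within a label was 0.985 to 0.990, and the highest r with another stage was 0.943 to 0.964. For replicate 1 the title and the tissue label name the same stage. None of the 8 neuron, 5 glia, 4 mesenchyme and 3 blood or vessel markers looked for was named either. Whole tissue was measured, so fewer cells of a type and less RNA per cell cannot be told apart. The share of spots well above background lay between 67.4% and 78.9% per array. All cervical loop arrays were scanned on one day and all others on another, and in any difference from the cervical loop the scan day and the stage cannot be told apart.

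Map2 encodes a microtubule-associated protein that binds along microtubules, stabilises and spaces them, and is a standard marker of neuronal dendrites. Dlg4 encodes PSD-95, a scaffold of the membrane-associated guanylate kinase family. It gathers glutamate receptors and signalling proteins under the postsynaptic membrane through its PDZ domains. Outside neurons, microtubule-associated and PDZ scaffold proteins take part in cell shape, in cell polarity and in the assembly of membrane complexes.

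The 250 bases upstream of the start that RefSeq gives each gene are shown because the genes share their highest signal in one stage, and they are set side by side to compare their makeup. They come from the RefSeq promoter table of the build GRCr8, where both genes were found. The Map2 window is chr9:75346440-75346689 and the Dlg4 window is chr10:55239534-55239783, both on the plus strand. Capitals mark a match to the E-box CANNTG.
Map2: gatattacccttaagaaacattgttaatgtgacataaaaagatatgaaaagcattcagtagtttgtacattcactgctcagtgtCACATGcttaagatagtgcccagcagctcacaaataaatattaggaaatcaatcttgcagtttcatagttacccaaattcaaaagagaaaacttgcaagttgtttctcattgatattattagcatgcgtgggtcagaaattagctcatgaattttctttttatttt
Dlg4: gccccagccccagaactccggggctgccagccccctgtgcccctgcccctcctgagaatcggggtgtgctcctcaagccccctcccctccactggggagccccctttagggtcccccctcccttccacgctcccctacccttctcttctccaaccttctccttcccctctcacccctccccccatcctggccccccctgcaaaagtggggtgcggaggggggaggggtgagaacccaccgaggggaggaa

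The Map2 window was poor in G and C, at 32.0% of its bases with 1 CpG, and only 2.88% of the 33469 promoters in the table had a lower share. The Dlg4 window was rich in them, at 69.2% with 5 CpGs, above the share of 90.8% of promoters. The median promoter had 51.2% and 5 CpGs. An E-box occurred once upstream of Map2 and not upstream of Dlg4, and 65.5% of all promoters held one. Searched on both strands, neither window held TATAAA (12.9% of promoters), CCAAT (34.0%) or GGGCGG (30.5%). Nor did either hold the half-sites TTCAGCACC (0.305%) or GGACAG (18.2%) of the RE1 element, which is bound by the neuronal gene repressor REST. The table gives 1 start per gene, while Map2 had 51 and Dlg4 7 transcripts in the RefSeq gene table, and which start or isoform the tissue uses was not measured.

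Map2 was well above background in the cervical loop only. On cervical loop replicates 1 to 5 its processed signal, the spot brightness after background subtraction by the scanner software, was 49.9, 12.8, 31.5, 52.3 and 44.4. On secretory replicates 1 to 5 it was 4.02, 3.89, 3.26, 5.92 and 2.30, and on maturation replicates 1 to 5 it was 2.99, 5.07, 3.14, 2.56 and 4.55. Every cervical loop array lay above every array of the later stages, and replicate 2 was the dimmest of its stage by a wide margin.

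The well-above-background flag followed the same division. It was set for 50 of 50 Map2 spots in the cervical loop, for 4 of 50 in the secretory stage and for 6 of 50 in maturation. The flagged spots of the later stages lay on 2 arrays each and never reached 50% of an array's spots, the share required here, so that Map2 counted as measured on 5 of 5, 0 of 5 and 0 of 5 arrays. Among the spots used, the brightest had a signal of 9.13 in the secretory stage and 7.77 in maturation, and all 50 cervical loop spots lay above both. The 7 Map2 spots left out for uneven or outlying signal were all in the later stages and reached 17.5 in the secretory stage and 23.0 in maturation.

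Scaled to the 75th percentile of each array, Map2 had a log2 signal of -3.86 ± 0.85 in the cervical loop, -6.62 ± 0.48 in the secretory stage and -7.13 ± 0.37 in maturation (SD, n = 5 each). The measured log2 differences were 2.77 (SE 0.34) between cervical loop and secretory stage and 3.28 (SE 0.34) between cervical loop and maturation. Because the later stages lay at background, these are not folds of expression. Bounds were set under this background correction and scaling. Each dim array took the higher of its Map2 signal and the lowest signal of any probe well above background. With this limit Map2 was nominally at least 3.63-fold lower in the secretory stage and at least 5.69-fold lower in maturation. Means of normalized log2 values were used. The limit is that of the dimmest such probe on each array, not of the Map2 probe. On secretory replicate 3 it was 6.62, while a Map2 spot at 8.30 was not well above background. Without cervical loop replicate 2 these bounds were 4.44-fold and 6.96-fold. They include no sampling error and do not hold under every background correction. Normexp without an offset, described below, gave measured log2 differences of 1.50 and 1.79, which lie below them.

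**Figure D1:**
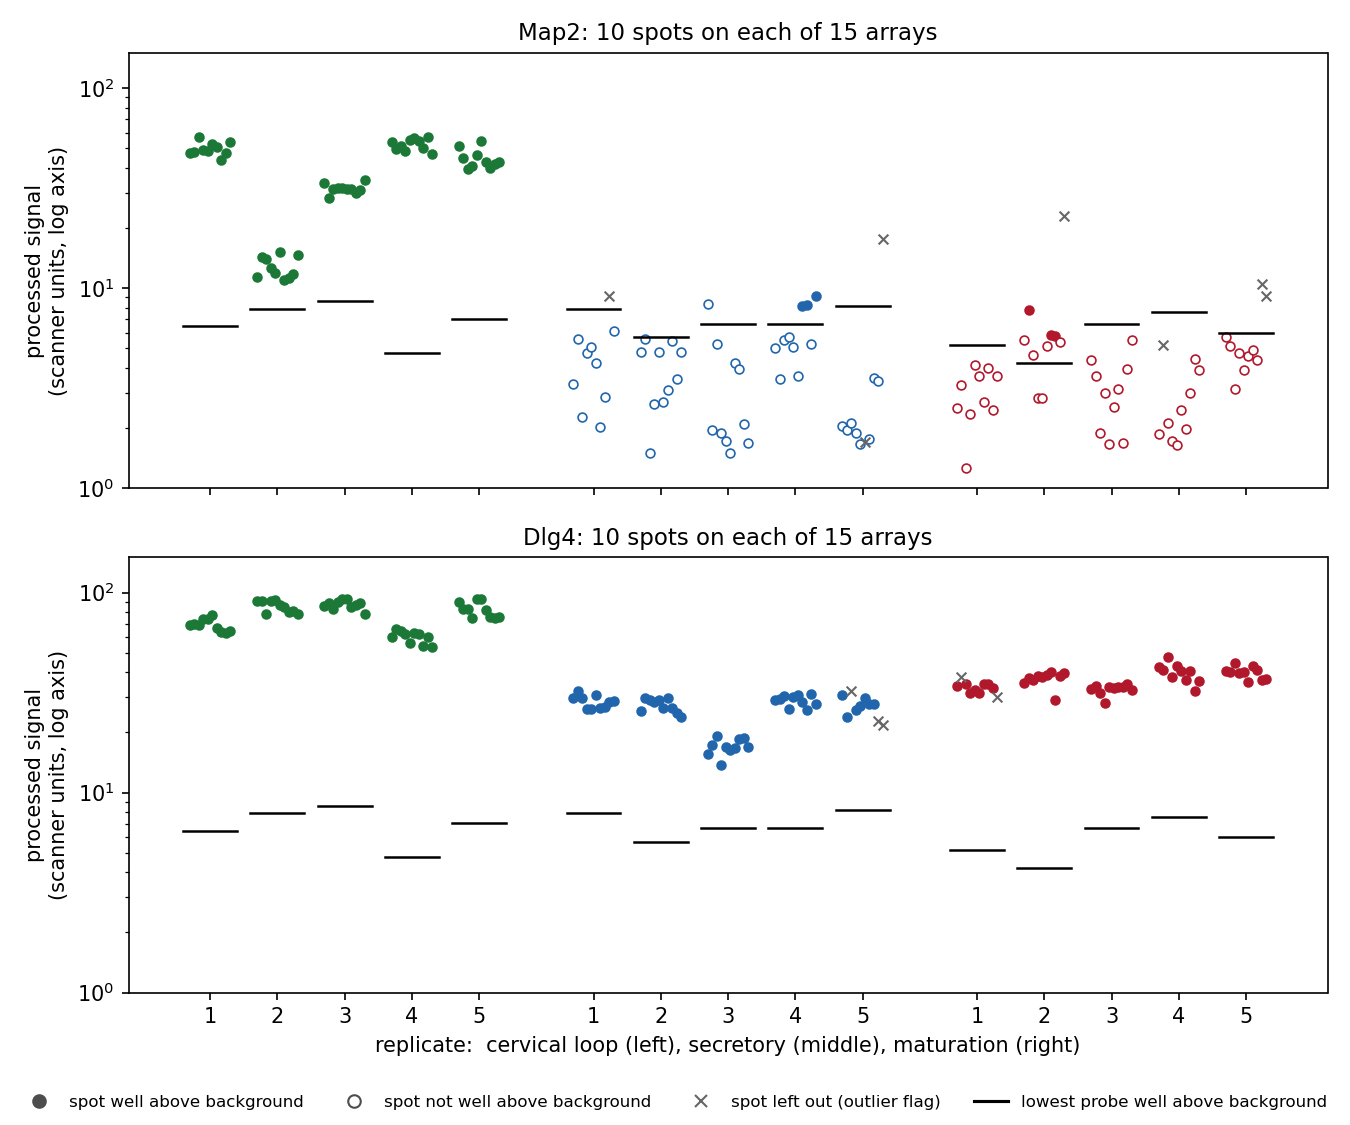
Processed signal of each Map2 and Dlg4 spot on a log axis, by array, with replicates 1 to 5 of the cervical loop (green), secretory stage (blue) and maturation stage (red); filled circles are spots well above background, open circles are not, crosses were left out, and black bars show the lowest probe well above background on that array. Map2 spots are filled on all cervical loop arrays and almost all open in the later stages, while Dlg4 spots are filled on all 15 arrays.

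The raw signal showed how close to background these values are. Averaged over its spots, the median raw signal of Map2 divided by the local background was 2.71, 1.38, 2.41, 3.52 and 2.82 on cervical loop replicates 1 to 5. It ranged from 0.981 to 1.42 with a median of 1.05 on the secretory arrays and from 1.11 to 1.36 with a median of 1.30 on the maturation arrays. On this scale cervical loop replicate 2 fell within the range of the secretory arrays, and the other 4 cervical loop arrays stayed above both later stages. The local background around the Map2 spots was 20.9 to 26.1 on cervical loop arrays, 20.8 to 24.5 on secretory arrays and 18.6 to 22.6 on maturation arrays.

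Negative control spots gave a second floor. Each array carried 153 of them, and the Map2 signal was brighter than all 153 on cervical loop replicates 1, 3, 4 and 5 and brighter than 151 on replicate 2. It was brighter than 145 to 151 of them on the secretory arrays and 146 to 151 on the maturation arrays. The scanner software called 44 of 50 secretory and 45 of 50 maturation spots positive and significant, a looser criterion than well above background. In the later stages Map2 lay below the lowest probe well above background on 9 of 10 arrays, the exception being maturation replicate 2 (5.07 against 4.21).

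Map2 varied widely among cervical loop arrays, with an SD of 0.85 on the log2 scale. Within an array its 10 spots had a coefficient of variation of 5.57% to 12.2%. No other of the 37 named genes tested varied as much among cervical loop arrays, and 4.58% of all 28863 features tested did. The array of replicate 2 had 72.6% of its spots well above background, against 77.6% to 78.9% on the other cervical loop arrays, and it had the lowest mean correlation with them, 0.977 against 0.979 to 0.983. Its part in the spread was not tested. By Dixon's criterion no array of any stage stood apart for either gene.

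Dlg4 was measured in all stages and was brightest in the cervical loop. Its processed signal was 69.1, 85.3, 87.1, 60.1 and 82.2 on cervical loop replicates 1 to 5. It was 28.5, 27.3, 17.0, 28.9 and 27.5 on the secretory arrays and 33.4, 37.2, 32.9, 39.8 and 39.8 on the maturation arrays. The 3 sets of values did not overlap before scaling, and secretory replicate 3 was the dimmest array. Whole arrays also differed in brightness: the 75th percentile of processed signal was 296 to 423 on secretory and 452 to 573 on maturation arrays. All 150 Dlg4 spots were well above background.

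After scaling, Dlg4 had a log2 signal of -2.76, -2.28, -2.92, -2.72 and -2.85 on cervical loop replicates 1 to 5, with a mean of -2.71 ± 0.25. The secretory arrays had -3.89, -3.82, -4.12, -3.67 and -3.72 (mean -3.85 ± 0.18) and the maturation arrays -3.76, -3.73, -3.83, -3.66 and -3.85 (mean -3.77 ± 0.08; SD, n = 5 each). The cervical loop arrays stayed above all others, while the later stages now overlapped. The log2 difference was 1.14 (SE 0.13), or 2.20-fold, between cervical loop and secretory stage and 1.06 (SE 0.13), or 2.09-fold, between cervical loop and maturation.

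**Figure D2:**
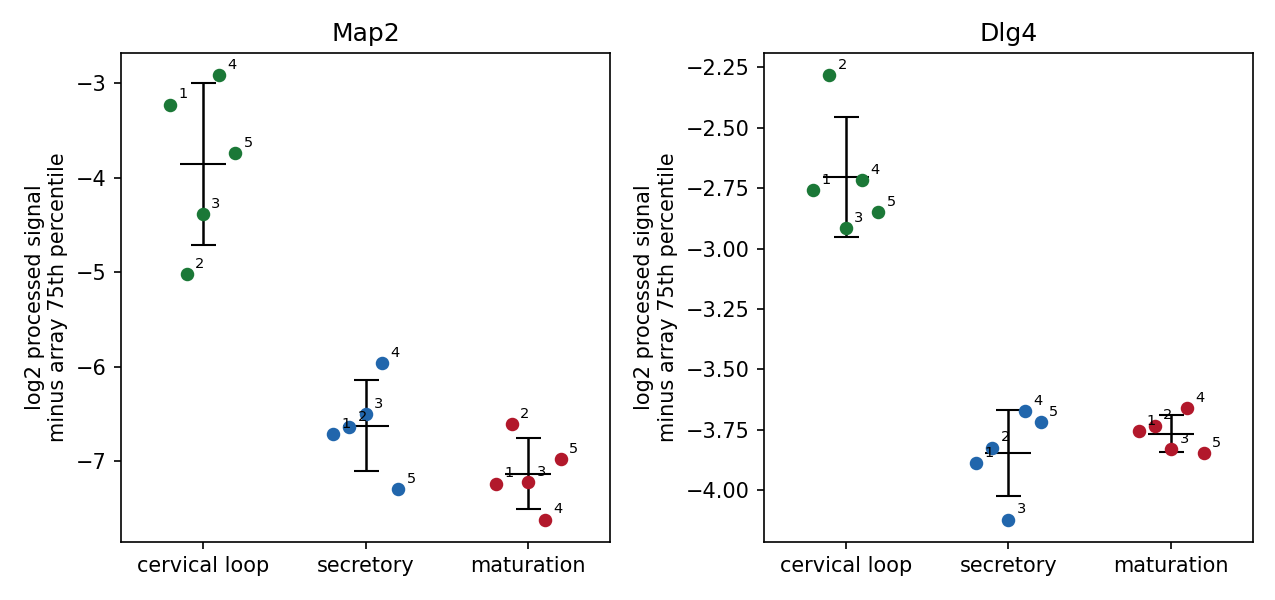
Log2 processed signal minus the 75th percentile of the array (y axis, which differs between panels) for Map2 and Dlg4 by stage; points are single arrays with their replicate numbers, and lines show the mean ± SD of 5 arrays. For both genes all 5 cervical loop arrays lie above all arrays of the later stages, and cervical loop replicate 2 is the lowest for Map2 and the highest for Dlg4.

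The raw Dlg4 signal over local background ranged from 3.39 to 4.57 in the cervical loop (median 4.25), from 1.64 to 2.61 in the secretory stage (median 2.24) and from 2.79 to 3.24 in maturation (median 2.94). These unscaled ranges did not overlap, but the secretory arrays were also dimmer as a whole than the maturation arrays. How many other features separate in this way was not counted. Spot precision was similar in all stages, with median coefficients of variation of 7.08%, 7.65% and 6.98%. Between arrays, Dlg4 varied less than most probes: 66.9% of features had a larger SD in the cervical loop, 72.1% in the secretory stage and 96.9% in maturation. Cervical loop replicate 2, the lowest array of its stage for Map2, had the median raw Dlg4 ratio of its stage, and the highest Dlg4 value after scaling to the 75th percentile.

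A share of dimmer probes needs no scaling between arrays. Of all probes on an array, 29.6% to 49.4% were dimmer than Map2 in the cervical loop, against 15.3% to 23.5% in the secretory stage and 17.7% to 22.5% in maturation. For Dlg4 the shares were 49.8% to 56.5%, 40.7% to 44.5% and 43.8% to 47.3%. By this measure too the cervical loop arrays did not overlap with the later stages for either gene. The genes were chosen for higher signal there, so this separation, here and above, restates the choice. How many other features separate in this way was not counted, while 24.2% were called higher there than in both later stages (limma, adjusted p under 0.05).

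Higher signal in the cervical loop was common on these arrays. Of the 28863 features tested, 36.7% were called higher in the cervical loop than in the secretory stage and 42.7% higher than in maturation (limma, adjusted p under 0.05). Both genes were among them in both comparisons, which share the cervical loop arrays and with which the genes were chosen, so nothing is read from that count. The Dlg4 differences were exceeded by 12.5% and 18.6% of features.

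Between the secretory and maturation stages, the contrast that did not choose the genes, Dlg4 did not pass the threshold. Its log2 difference, maturation minus secretory, was 0.08 (SE 0.13, 95% interval -0.20 to 0.36; limma, unadjusted p = 0.548, adjusted p = 0.612). Of all features, 25.1% were called higher and 34.4% lower in maturation, a balance that depended on the scaling: with median scaling 9602 were higher and 7017 lower, against 7245 and 9915. Map2 differed by -0.51 on the same scale, but this sets background values against each other, and a change below background could not be seen at any size. One scan held both stages, with maturation replicate 5 alone beside secretory replicates 1 to 3, and there the Dlg4 difference was 0.10. With the stages that the titles give, the difference was -0.03 for Dlg4 (adjusted p = 0.906), and that of the Map2 background values turned to 0.30. In order of level, Dlg4 was highest in the cervical loop. Under the scaling used in this test, its secretory and maturation levels did not differ beyond their spread, but their difference depended on the processing. With limma, maturation minus secretory was 0.33 with quantile normalization (adjusted p = 0.0553) and 0.30 with median scaling (adjusted p = 0.0791). Without scaling it was 0.52 (adjusted p = 0.0213), and with normexp it was -0.20 with an offset of 50 (adjusted p = 0.0783). Normexp without an offset gave -0.02 (adjusted p = 0.921). For Map2 the later stages have no order.

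The sizes depended on the scaling and on the background correction. The median difference of all features was 0.28 between cervical loop and maturation with 75th percentile scaling and -0.16 with median scaling. Relative to that median, Dlg4 was higher in the cervical loop by 0.78 under both scalings, and by 0.54 with quantile normalization. Both scalings subtract a constant from each array, so their agreement is fixed by arithmetic and is no check of Dlg4. The Dlg4 difference from maturation itself was 0.60 with quantile normalization and 0.62 with median scaling, short of 2-fold. Map2 kept log2 differences of 2.35 and 2.49 from the secretory and maturation stages with quantile normalization.

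Normexp correction of the median spot signal with an offset of 50 left log2 differences of 0.24 (SE 0.14) and 0.60 (SE 0.14) for Map2 and 0.27 (SE 0.10) and 0.47 (SE 0.10) for Dlg4, from the secretory and maturation stages in turn. With this correction 3 of 5 cervical loop arrays for Map2, and 1 of 5 for Dlg4, no longer lay above all secretory arrays. An offset near or above the signal itself compresses the log2 differences of dim probes by construction. Its part in the smaller differences and in the overlap of arrays was not tested. Normexp without an offset gave 1.50 and 1.79 for Map2 and 0.83 and 0.85 for Dlg4, and the cervical loop arrays again lay above all others. The mean of both genes was highest in the cervical loop in all of these settings, which is the direction they were chosen for.

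**Figure D3:**
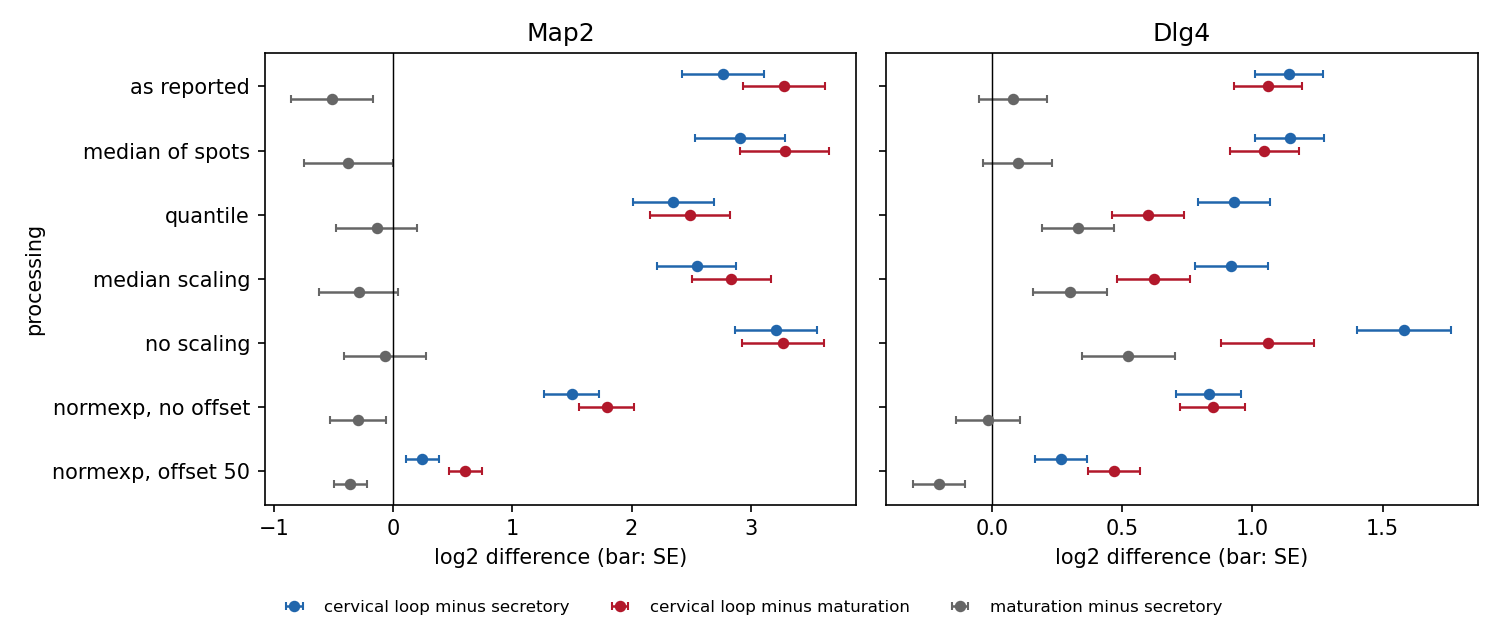
Log2 differences between stages (x axis, which differs between panels; points, with bars of 1 SE from the limma fit) for Map2 and Dlg4 under 7 ways of processing the same 15 arrays (y axis). Differences from the cervical loop (blue and red), for whose direction the genes were chosen, stay above 0 in all 7. They shrink most with normexp and an offset of 50. The difference between maturation and secretory stage (grey) ranges from -0.51 to -0.06 for Map2, at background in both stages. For Dlg4 it ranges from -0.20 to 0.52.

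Few genes of either pathway could be set beside them. Of 16 genes of microtubule-associated proteins and tubulins listed, only Map2 itself was named on the array, and of 18 genes of the postsynaptic scaffold only Dlg4. Of 12 genes for proteins that bind PSD-95 or MAP2 or join them in complexes, 3 were named: Ptk2b, Cdh2 and Actb. In the cervical loop against the secretory stage 1 of these 3 was higher, 1 lower and 1 did not pass the threshold, and against maturation 1 was higher and 2 lower. Of all features, 36.7% were higher and 21.4% lower in the first comparison, and 42.7% and 20.6% in the second. Their medians were 0.26 and -2.58, beside 0.19 and 0.28 for all features tested.

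These 3 genes did not follow one pattern. Actb, which encodes beta-actin, was higher in the cervical loop than in the secretory stage by 1.19 and than in maturation by 0.88 on the log2 scale (adjusted p = 7.63e-06 and 0.000108). Cdh2, which encodes N-cadherin, an adhesion molecule of synapses and epithelia, was lower in the cervical loop, with log2 differences of -2.01 and -2.58 from the same stages (adjusted p = 5.27e-07 and 2.97e-08). Ptk2b, a non-receptor tyrosine kinase that binds PSD-95, differed from the secretory stage by 0.26 (adjusted p = 0.438) and was highest in maturation, where it exceeded the secretory stage by 3.14 (adjusted p = 1.86e-07).

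Of 11 genes listed as enriched in neurons, only Trim2, which encodes a ubiquitin ligase that acts on neurofilament light chain, was named. It went opposite to Map2 and Dlg4. Its log2 signal was 2.22 ± 0.43 in the cervical loop, 2.74 ± 0.27 in the secretory stage and 3.50 ± 0.14 in maturation (SD, n = 5 each), and all 3 differences passed the threshold (adjusted p = 0.0250, 2.74e-05 and 0.00287 for cervical loop against secretory stage, cervical loop against maturation, and maturation against secretory stage). The 1 listed neuronal gene beside the chosen pair was thus lowest, not highest, in the cervical loop.

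**Figure D4:**
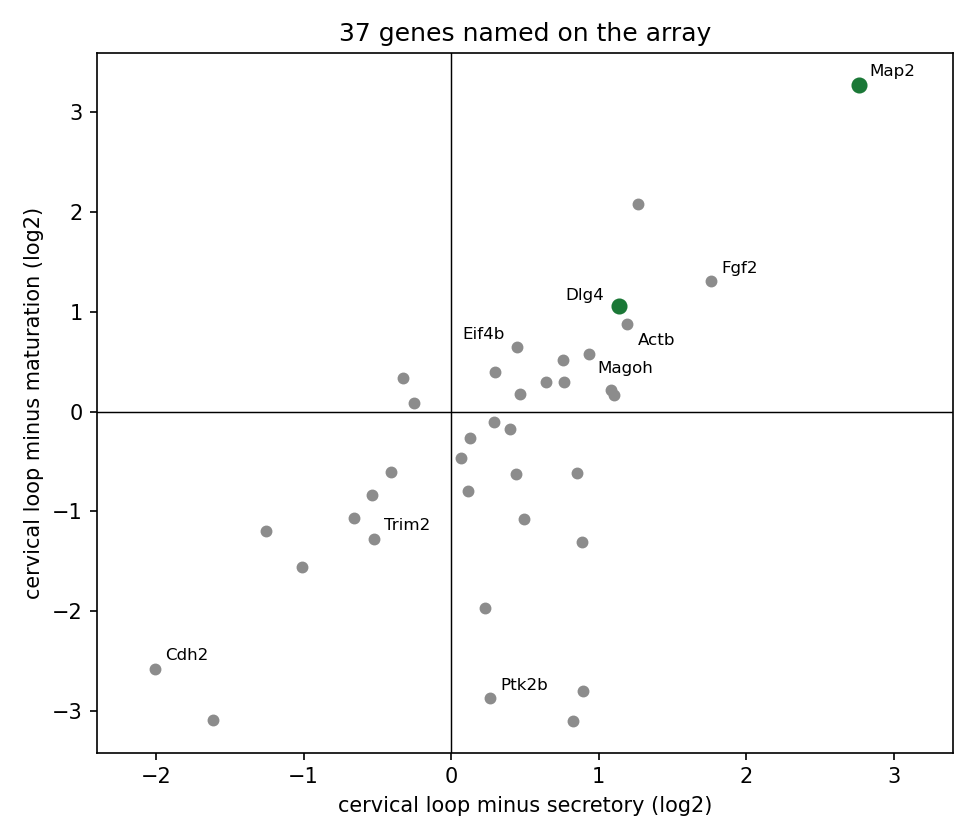
Log2 difference cervical loop minus secretory stage (x axis) against cervical loop minus maturation (y axis) for the 37 genes named on the array and tested, both against the same cervical loop arrays; Map2 and Dlg4 are green. Both lie in the upper right, with Map2, whose values in the later stages are at background, farthest out, and Trim2, Cdh2 and Ptk2b lie elsewhere.

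Among the 35 other named genes, 12 had their highest mean in the cervical loop. Called higher there than in both later stages were 6 of them, Actb, Cyp2e1, Eif4b, Fgf2, Magoh and Ppp2r2b, while 24.2% of all features were. Cyp2e1 was well above background on 0 of 5 secretory and 1 of 5 maturation arrays. Of the 35, 17 were called higher and 9 lower in the cervical loop than in the secretory stage, and 8 higher and 17 lower than in maturation, with medians of 0.40 and -0.47 beside 0.19 and 0.28 for all features. The shares over all features were 36.7% higher and 21.4% lower, and 42.7% higher and 20.6% lower.

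Likeness of pattern was described over the 15 arrays by correlation of the scaled log2 signal. These arrays fall into 3 stages of 5, so a coefficient mostly reflects the stage means. The 2 genes themselves correlated at r = 0.84 (Spearman's rho = 0.58). Both were chosen for higher signal in the cervical loop, so a positive coefficient was built in and nothing is read from it. By Pearson's r the most alike other genes for Map2 were Fgf2, a fibroblast growth factor (r = 0.85, rho = 0.49), Eif4b, a translation initiation factor (r = 0.83, rho = 0.70), and Actb (r = 0.78, rho = 0.43). By rank the order was another, with Cyp2e1, a cytochrome P450, first (rho = 0.81, r = 0.73). Cyp2e1 was well above background on 0 of 5 secretory and 1 of 5 maturation arrays, and Map2 on none of either. In the later stages this rank likeness thus largely orders background values. For Dlg4 they were Fgf2 (r = 0.93, rho = 0.81), Actb (r = 0.90, rho = 0.74) and Magoh, a core protein of the exon junction complex (r = 0.90, rho = 0.78). The order of these genes changed with the normalization, and under each of the 3 settings tried only Eif4b for Map2 and Fgf2 for Dlg4 were among the first 3.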

How the data were processed

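Per the submitters' processing notes, Agilent Feature Extraction 11.0.1.1 was the authors' scanner software. The deposited scanner files, per the file headers, hold spot intensities on a linear scale and 0 or 1 flags (well above background, positive and significant, outlier) without a unit. Every spot whose subtracted signal was not above 0 (53121 over the arrays) carried a small positive processed signal. The authors' deposited series table of log2 values held neither Map2 nor Dlg4. RNA was labelled with Cy3 per the labels.

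Outlier spots and controls were left out, a probe's spots averaged, and log2 processed signals were scaled by subtracting each array's 75th percentile. A probe was well above background on an array if at least 50% of its spots were. Features so on all 5 arrays of 1 stage or more were tested with limma 3.58.1 in R 4.3.3 (lmFit, eBayes, no block, Benjamini-Hochberg over 28863 features), with the brightest probe per gene. On simulated data for maturation against secretory stage, 97 of 100 changes of 2 on the log2 scale were recovered, and 69 of 100 changes of 1. Far fewer features changed there than were called in the data, so these shares do not give the power for Dlg4. The files have no mean spot signal, so normexp used the median. Names came from RefSeq (GRCr8), matched without versions for 39 of 62 accessions. Probe sequences are not used here. Where nothing states separate preparations, p-values measure the spread between these samples. Python 3.11.15, pandas 2.3.3 and matplotlib 3.10.9 were used.

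Members, lists and tests were chosen with earlier results of these data known. Members are named in full, with the listed genes found on the array and the 3 other named genes best correlated with each. Alternatives were quantile and median scaling, normexp, the median of spots, no filter, stages from titles, blocks for replicate number and scan, each array left out and, added after seeing the data, no scaling and normexp without an offset. Same-numbered secretory and maturation arrays deviated together weakly (r from 0.11 to 0.29 in 5 of 5 pairs, all above 0.1). The numbers may therefore pair these stages, which the main fit without a block does not use. For same-numbered arrays, r was above 0.1 in 1 of 5 pairs of cervical loop with secretory and 2 of 5 with maturation arrays. Over all stages, the array of the same number correlated best in 17 of 30 cases. The design text names 5 rats but ties no number to a rat.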

Additional observations from a re-analysis of the deposited data

How the results depend on the processing

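The mean differences of Map2 and Dlg4 from the cervical loop stayed above 0 under all 25 alternatives of each comparison, but with normexp that of Map2 from the secretory stage was 0.24 (SE 0.14), with 2 of 5 cervical loop arrays above all secretory arrays. Moved by more than the SD between arrays were Map2 with normexp (0.24 and 0.60 from secretory and maturation) and with normexp without an offset (1.50 and 1.79), Dlg4 with normexp (0.27 and 0.47), and Dlg4 from the secretory stage with normexp without an offset (0.83) and without scaling (1.58), and from maturation with quantile normalization (0.60) and median scaling (0.62). For maturation minus secretory, Map2, at background in both stages, passed the threshold with normexp only (-0.36, adjusted p = 0.0305, otherwise up to 0.891). Dlg4 passed it without scaling only (0.52, adjusted p = 0.0213, otherwise from 0.0553 with quantile normalization up to 0.949). The Dlg4 difference was -0.20 with normexp. The cause was not tested.

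With stages from the titles, 11575 features differed between cervical loop and maturation (18255 otherwise) and 0 between maturation and secretory stage (limma; 7326 at an unadjusted p under 0.05; 17160 otherwise). The Map2 differences were then 3.17 from the secretory stage, 2.87 from maturation and 0.30 between them, and the last was -0.03 for Dlg4. Between maturation and secretory stage, 8086 differed with the scan as a block, from the arrays of those stages, 16002 with the scan as a random block on all arrays, and 3393 within the shared scan, where maturation has 1 array and takes its spread from the 3 secretory ones. Without scaling, 15991 features were higher and 2464 lower in the cervical loop than in the secretory stage (10597 and 6172 otherwise); with median scaling the split was 7332 and 8536, with normexp 5969 and 7872, and with quantile normalization 8927 and 7591. Against maturation it was 6689 and 10801 with median scaling and 8604 and 7239 with quantile normalization (12319 and 5936 otherwise). For maturation against secretory stage it was 9602 and 7017 with median scaling, 5948 and 13366 with normexp, and 11211 and 3196 without scaling (7245 and 9915 otherwise).

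Leaving out each array in turn, Map2 differences ranged from 2.53 to 3.06 and from 3.04 to 3.57 for the cervical loop against secretory stage and maturation, both highest without cervical loop replicate 2, and from -0.68 to -0.34 for maturation minus secretory. Dlg4 ranged from 1.03 to 1.19, from 0.95 to 1.11 and from 0.01 to 0.12. Counts of features called ranged from 15643 to 17054, 16937 to 18394 and 15643 to 17495.

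With the replicate block, the adjusted p of maturation minus secretory was 0.584 for Dlg4 and 0.242 for Map2, and 17559 features differed; the block changed no call of either gene. The series table could not be run for either gene. Signal over background limits Map2 outside the cervical loop to nominal bounds. They hold only for the background correction, scaling and limit they were set under.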
